A study of Homo sapiens with 32 samples.

Results

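The genes described here were the FOS and JUN family of AP-1 transcription factors together with a pair of relatives, 9 genes in all, taken by symbol from the deposited gene tables, in which 18583 of 47137 gene entries held values. They were FOS, FOSB, FOSL1 and FOSL2 on the FOS side, JUN, JUNB and JUND on the JUN side, and BATF3 and MAFF. After 12 weeks, MAFF was lower than the control with 0.1 and 1 µM PFOS, and JUN, FOSB and FOSL2 were lower with 0.1 µM. Of all genes tested, 1.07% were called at 0.1 µM and 0.22% at 1 µM. The MAFF call at 1 µM held under all 13 alternative fits. At 0.1 µM the calls held under 12 for MAFF, 11 for JUN, 8 for FOSL2 and 7 for FOSB. None of these calls at 0.1 µM held when the cultures of vial 3 were left out. From 6 to 12 weeks in culture without PFOS, FOS, FOSB, JUN and MAFF had risen, where 36.6% of all genes tested were called. With 0.1 µM, FOSL2 was the only member called over that time, and it fell, beside 40.3% of genes called. The rise without PFOS and the PFOS comparisons at 12 weeks share the same 12-week control libraries. No called difference reached 2-fold in any member.

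AP-1 is a dimer of basic leucine zipper (bZIP) proteins. FOS proteins cannot pair with each other and bind DNA only with a partner, mostly a JUN protein, whereas JUN proteins can also pair among themselves. FOS, FOSB, JUN and JUNB are classical immediate early genes, transcribed within minutes of a growth factor or stress signal without new protein synthesis, while JUND is present in most cells at a steady level. FOSL1 (FRA1) and FOSL2 (FRA2) lack the strong activation domain of FOS and follow it more slowly. BATF3 pairs with JUN proteins and is best known from dendritic cells, and MAFF is a small MAF protein without an activation domain that pairs with NFE2-type factors. In the ovary, AP-1 factors are induced in granulosa cells by the gonadotropin surge and by growth factors.

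HGrC1 is an immortalized human granulosa cell line, derived from the somatic cells that surround the oocyte in the follicle. Cells thawed from 4 vials were each divided over a vehicle control (0.05% DMSO) and 0.01, 0.1 and 1 µM PFOS (perfluorooctane sulfonate, a persistent fluorinated surfactant), and RNA was taken after 6 weeks and after 12 weeks, which gave 8 groups of n = 4 libraries and 32 libraries in all. All groups grew in 10% serum with 100 nM of a steroid that the sample labels name as estradiol and the study's methods as testosterone, and PFOS was renewed at every passage. All replicates came from the same line, so p-values measure the spread between vials of it.

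Library depth was even, from 17907057 to 18553350 counts, and the counts printed below are unscaled unless CPM or TPM, both scaled to library size, is named. Of 18 granulosa markers, 16 were listed with values, several of them near 0. Median values were 0.635 TPM for FOXL2, 0.69 for CYP11A1, 1.77 for STAR, 1.52 for INHA and 0.06 for NR5A1. AMHR2 and HSD3B2 had a median of 0, whereas AMH had 13.5 TPM and FST 17.9. GATA4 lay at 60.9 to 87.9 TPM and WT1 at 32.4 to 44.8 TPM, while CYP19A1, the aromatase gene, did not pass 0.02 TPM and neither FSHR nor LHCGR was listed with values. Summed counts of 14 liver transcripts reached 1737 in the 12-week control library of vial 3 and ranged from 305 to 656 in all other groups, so results at 12 weeks are also given without that library. At 6 weeks the same sum lay at 516 to 622 with 0.1 µM PFOS and at 515 to 571 with 1 µM, above the 305 to 390 of the control. Its part in the results was not tested. Of the leukocyte markers, CD3E had no counts in any library and PTPRC at most 8, while CD68 had 243 to 497 counts and CD14 33 to 190.

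On GRCh38.p14, FOS lies on chromosome 14 (75278828 to 75282230, plus strand), FOSB on 19 (45467996 to 45475179, plus), FOSL1 on 11 (65892049 to 65900545, minus) and FOSL2 on 2 (28392858 to 28417317, plus). JUN lies on chromosome 1 (58780791 to 58784047, minus), JUNB on 19 (12791486 to 12793315, plus), JUND on 19 (18279694 to 18281622, minus), BATF3 on 1 (212686417 to 212699840, minus) and MAFF on 22 (38201994 to 38216511, plus). Genes on the opposite strand overlap FOSB (ERCC1), JUNB (HOOK2), MAFF (PLA2G6) and FOSL2 (FOSL2-AS1), and FOSL2 also overlaps a long noncoding RNA gene on its own strand (ENSG00000270640). The libraries kept strand, but the strand setting of the counting is not given in the sources used here.

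JUNB and FOS were the most abundant members. On the per-length TPM scale, the median over the 32 libraries was 388 TPM for JUNB and 383 TPM for FOS, above 98.2% of all genes with values. JUND followed at 164 TPM, FOSB at 140, MAFF at 81.3, FOSL1 at 72.4, JUN at 65.6 and FOSL2 at 47.0. BATF3 was far lower, at 2.92 TPM and 11 to 32 counts per library, so that its differences carry wide counting error. JUNB exceeded FOS in 17 of 32 libraries, so these neighbours did not separate, and JUND exceeded FOSB in 24, MAFF exceeded FOSL1 in 24 and FOSL1 exceeded JUN in 22. FOS exceeded JUND, FOSB exceeded MAFF, JUN exceeded FOSL2 and FOSL2 exceeded BATF3 in all 32.

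**Figure D1:**
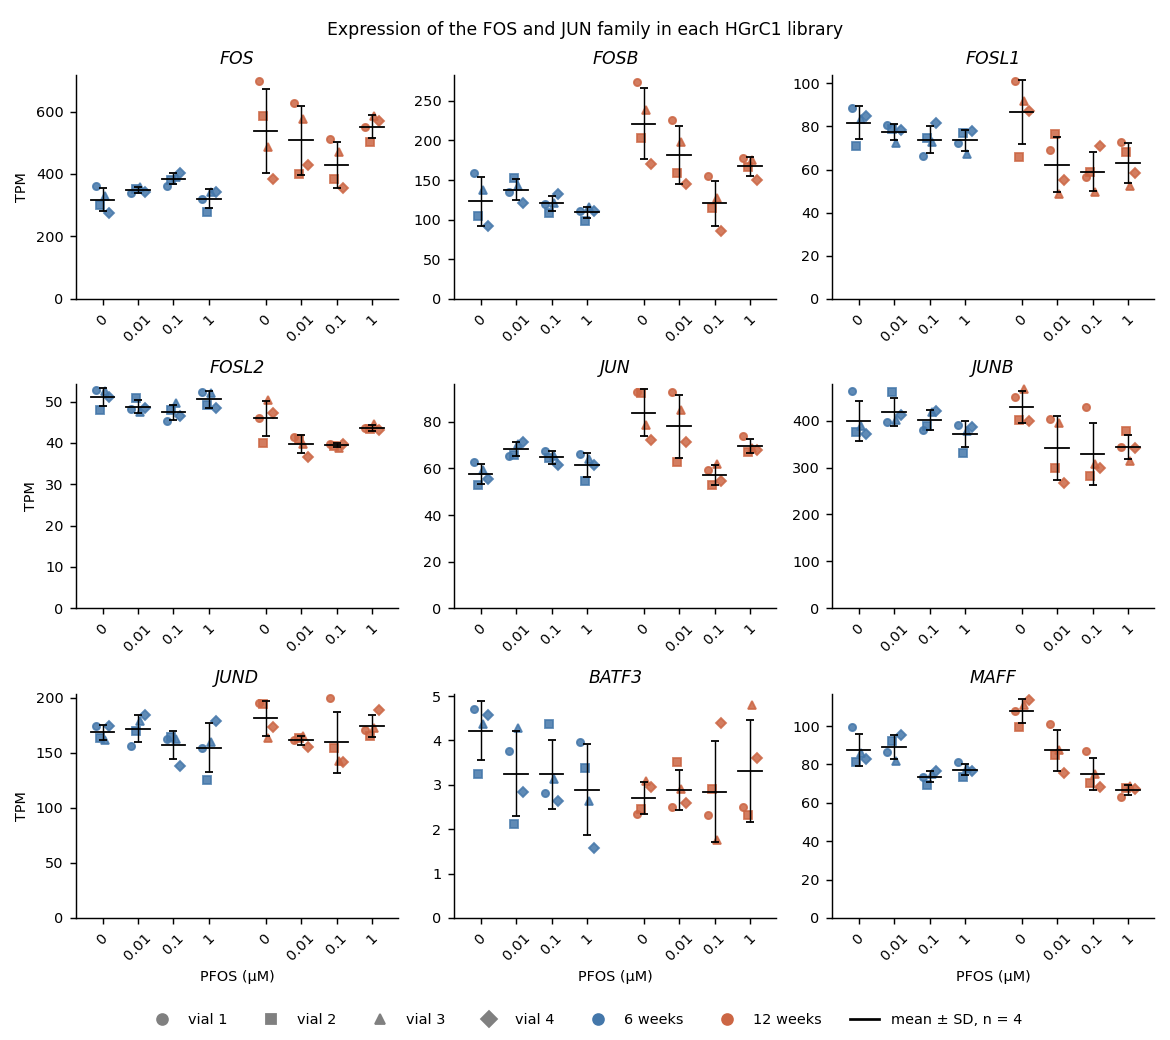
TPM of the 9 members in each library, by PFOS concentration (µM) at 6 weeks (blue) and 12 weeks (orange), with a marker for each vial and the mean ± SD (n = 4) in black. FOS, FOSB and JUN stood highest in 12-week groups, and the mean of MAFF at 12 weeks was 108.0 TPM in the control and 66.6 TPM at 1 µM.

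The make-up of the family shifted with time in culture. The 4 FOS-side genes summed to 573.9 ± 73.4 TPM (SD, n = 4) in the control at 6 weeks and to 892.1 ± 177 TPM at 12 weeks, while the JUN side went from 625.4 ± 50.1 to 694.4 ± 39.6 TPM. The ratio of the FOS side to the JUN side lay between 0.916 and 1.00 in the 4 groups at 6 weeks and between 1.2 and 1.41 in the 4 groups at 12 weeks. Within the FOS side, FOS held 55.5% ± 1.4 in the control at 6 weeks and 59.9% ± 4.8 in the control at 12 weeks, and FOSL1 held 14.4% ± 1.7 and 9.93% ± 2.3. At 1 µM PFOS FOS held 57.8% ± 1.9 and 66.8% ± 2.3 at these times, and FOSL1 13.3% ± 1.5 and 7.65% ± 1.3. JUNB held 58.4% to 64.5% of the JUN side and JUN 9.22% to 13.4%. These shares are a description with no test, and bulk RNA cannot tell fewer expressing cells from less RNA per cell.

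**Figure D2:**
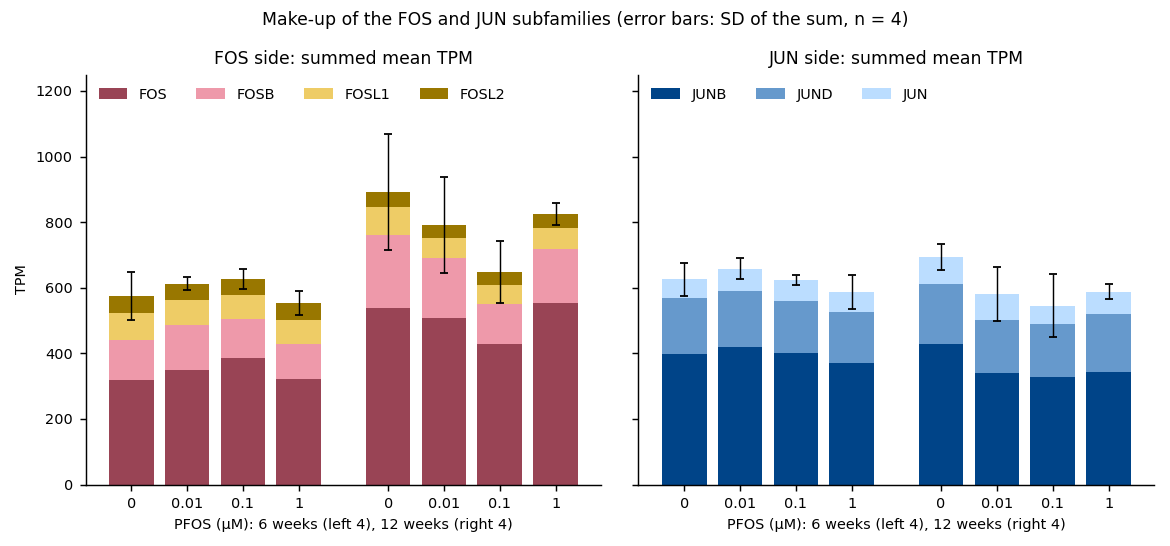
Stacked mean TPM of the FOS side (left) and the JUN side (right) in the 8 groups, with the SD of the summed TPM over 4 libraries as error bar. The FOS side stood at 553.5 to 626.0 TPM at 6 weeks and at 649.0 to 892.1 TPM at 12 weeks, and the 12-week group with the lowest sum was 0.1 µM PFOS.

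The promoters of the members that the results turn on are shown first. FOS, FOSB and JUN rose with time in the control. After 12 weeks MAFF was lower than the control at both 0.1 and 1 µM PFOS. RefSeq start sites (GRCh38.p14) were given for 7 of the 9 members (not FOSL1 and BATF3), with 2 start sites for MAFF, of which the upstream one is shown. Each run is the 150 bases before the start site, 5′ to 3′ on the gene's strand, with matches to TGACGTCA (the cAMP response element) or to its core TGACGT in capitals.
FOS, chr14:75278678-75278827, plus strand: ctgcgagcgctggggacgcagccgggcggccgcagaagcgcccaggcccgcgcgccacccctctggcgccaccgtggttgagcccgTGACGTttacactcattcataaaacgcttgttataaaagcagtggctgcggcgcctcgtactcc
FOSB, chr19:45467846-45467995, plus strand: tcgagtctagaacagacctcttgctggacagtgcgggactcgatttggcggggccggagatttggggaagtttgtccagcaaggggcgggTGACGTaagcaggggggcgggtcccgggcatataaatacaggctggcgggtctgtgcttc
JUN, chr1:58784048-58784197, minus strand: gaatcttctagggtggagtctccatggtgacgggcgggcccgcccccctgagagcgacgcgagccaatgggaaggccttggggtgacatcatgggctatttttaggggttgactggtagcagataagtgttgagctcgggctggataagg
MAFF, chr22:38201844-38201993, plus strand: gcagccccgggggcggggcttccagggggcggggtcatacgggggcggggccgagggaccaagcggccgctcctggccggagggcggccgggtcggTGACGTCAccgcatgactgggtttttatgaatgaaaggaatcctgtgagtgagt

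The core TGACGT began 64 bases before the FOS start, 60 before the FOSB start and 54 before the MAFF start, where it is part of a whole TGACGTCA. In windows of 300 bases (250 before and 50 after the start, both strands), TGACGT was found in 5 of the 7 members (FOS, FOSB, FOSL2, JUND and MAFF) and in 7.98% of 35116 promoters. TGACGTCA was found in JUND and MAFF and in 1.85% of promoters. The TPA response element TGACTCA, to which AP-1 itself binds, was found in FOSL2 alone of the 7, and in 4.95% of promoters. The FOSL2 match lay after the start site, from base 5. TGANTCA, which includes TGACTCA, was found in FOSL2 and in 7.71% of promoters. Other variants of these elements were not searched. The serum response element was found in none of the 7 windows and in 1.29% of promoters. Bases further upstream were not searched for any motif. The search for TGACGT was added after the sequences had been read. A match describes letters only.

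The first question was whether PFOS changed the family after 6 weeks, where MAFF was slightly lower at 0.1 µM. At 0.1 µM, 1 of 9 members was called (adjusted p at or under 0.05 over all genes tested, edgeR) where 4.24% of 12836 genes were. The median log2 fold change of the members was -0.08 and that of all genes 0.000. At 1 µM 0 of 9 members were called beside 0.28% of genes, and at 0.01 µM 0 of 9 beside 0% of genes. With edgeR, 1 member at 0.01 µM and 2 at 1 µM had an unadjusted p under 0.05, beside 1232 and 1757 of the 12836 genes. DESeq2 and limma called 0 members at both concentrations.

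MAFF was the member called at 6 weeks. Its counts were 2465, 2049, 2132 and 2022 in the control libraries of vials 1 to 4, and 1853, 1708, 1849 and 1938 at 0.1 µM. All 4 exposed libraries lay below all 4 control libraries. In edgeR the log2 fold change was -0.23 (SE 0.05, adjusted p = 0.0274). The call was lost without vial 1 (adjusted p = 0.108) and without vial 3 (0.167), with limma (0.0642) and with all 32 libraries in the fit (0.111).

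FOS and JUN lay on the other side. FOS counts were 7824, 6624, 7146 and 5870 in the control and 7969, 8140, 8408 and 8921 at 0.1 µM, again without overlap, with a log2 difference of 0.30 (SE 0.08, adjusted p = 0.0639). JUN counts were 2212, 1887, 2088 and 1921 in the control and 2424, 2253, 2290 and 2206 at 0.1 µM, a log2 difference of 0.19 (SE 0.06, adjusted p = 0.0561), with an overlap in raw counts that scaling to CPM removed. Neither passed the test, although DESeq2 called both (adjusted p = 0.0199 and 0.0256) and the vial as replicate block called JUN (0.0126). At 0.01 µM the JUN counts were 2291, 2321, 2539 and 2542, all above the control, with a log2 difference of 0.26 (SE 0.06, adjusted p = 0.242), which the block called (0.0282). JUN was above the control of the same vial in 4 of 4 vials at each of the 3 concentrations, all compared with the same 4 controls.

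The other members at 6 weeks did not pass the test. FOSB, with 3687 to 6507 counts in the control, FOSL1, JUNB and JUND differed from the control by -0.13 to 0.18 on the log2 scale over the 3 concentrations. FOSL2, the member with the smallest spread between vials at 6 weeks, differed by -0.09 to 0.04. BATF3 counts were 31, 22, 29 and 30 in the control and 27, 23, 18 and 11 at 1 µM, a log2 difference of -0.49 (SE 0.25, adjusted p = 0.401) from very few reads, and the exact permutation test on 4 against 4 libraries gave p = 0.0857 (two-sided, where 0.0286 is the smallest it allows).

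After 12 weeks most members lay below the control. At 0.1 µM, 4 of 9 members were called, all lower, where 1.07% of 12742 genes were called. The median log2 fold change of the members was -0.42 and that of all genes -0.005. At 1 µM, 1 of 9 members was called beside 0.22% of genes, with a median of -0.34 over the members. Deviations of same-numbered control and 1 µM libraries at 12 weeks correlated weakly and negatively (r from -0.202 to -0.115). The other pairs of 12-week groups had a mean r of 0.0495 to 0.157. Whether the vial numbers at 12 weeks are right was not tested, so values by vial and with the block rest on the labels there. At 0.01 µM 0 of 9 members were called with edgeR, DESeq2 or limma, beside 0% of genes with edgeR (4 genes with DESeq2). With edgeR, 4 members had an unadjusted p under 0.05, beside 1080 of the 12742 genes. At each of the 3 concentrations 8 of 9 members had a log2 difference below 0, BATF3 being the exception. The 3 comparisons share the same 4 control libraries.

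MAFF, the small MAF gene, was lower at 0.1 and 1 µM. Its counts were 2751, 2558, 2956 and 2989 in the control libraries of vials 1 to 4 at 12 weeks. They were 2535, 2217, 2344 and 2046 at 0.01 µM, 2229, 1788, 1898 and 1728 at 0.1 µM, and 1576, 1732, 1705 and 1656 at 1 µM. No exposed library reached the lowest control library in counts, and each was below the control of its own vial, although on the CPM scale the lowest concentration overlapped with the control. The log2 fold change was -0.30 at 0.01 µM (SE 0.07, adjusted p = 0.472), -0.56 at 0.1 µM (SE 0.07, adjusted p = 0.000778) and -0.76 at 1 µM (SE 0.07, adjusted p = 9.49e-06). At 1 µM the call held under all 13 alternatives, with adjusted p from 3.14e-19 to 0.00803, and at 0.1 µM under 12 of 13, the exception being the fit without vial 3 (0.0646).

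JUN was the only JUN-side gene called. Its counts at 12 weeks were 3361, 3372, 2966 and 2695 in the control, 3297, 2324, 3244 and 2740 at 0.01 µM, 2161, 1917, 2230 and 1952 at 0.1 µM, and 2627, 2442, 2429 and 2384 at 1 µM. All libraries at 0.1 and 1 µM lay below all control libraries in counts and CPM, whereas those at 0.01 µM overlapped with the control. The log2 fold change was -0.59 at 0.1 µM (SE 0.10, adjusted p = 0.0064) and -0.34 at 1 µM (SE 0.09, adjusted p = 0.214). The call at 0.1 µM was lost without vial 3 (0.0845) and without vial 4 (0.068). With all 32 libraries in the fit, JUN was called at 1 µM too (0.0474).

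JUNB and JUND did not pass the test at 12 weeks. JUNB counts were 8502, 7649, 9217 and 7771 in the control, 8128, 5336, 5774 and 5605 at 0.1 µM, and 6398, 7182, 5771 and 6234 at 1 µM. At 0.1 µM the library of vial 1 lay inside the control range and the other 3 lay below it, and the log2 difference was -0.42 (SE 0.14, adjusted p = 0.187). At 1 µM the groups did not overlap, and the log2 difference was -0.38 (SE 0.14, adjusted p = 0.434). JUNB was called at 0.1 µM with all 32 libraries in the fit (0.0442) and at 1 µM with only the 8 libraries compared (0.0444). Without vial 1, JUNB was called at 0.1 µM (log2 difference -0.56, adjusted p = 0.0408), as was JUND (-0.32, 0.0129), whose vial 1 library at 0.1 µM held 4036 counts against 2818 to 3093 in the other 3.

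On the FOS side, FOSB was lower at 0.1 µM with a wide spread between vials. Its counts at 12 weeks were 11545, 8656, 10480 and 7366 in the control, 9326, 6808, 8779 and 6492 at 0.01 µM, 6565, 4813, 5329 and 3591 at 0.1 µM, and 7356, 7035, 7169 and 6125 at 1 µM. The libraries at 0.1 µM all lay below the control range, those at 1 µM lay just below it in counts but overlapped with it in CPM, and those at 0.01 µM overlapped with it. The log2 fold change at 0.1 µM was -0.91 (SE 0.18, adjusted p = 0.0383). This call held under 7 of 13 alternatives and was lost, for example, without vial 2 (0.17), vial 3 (0.501) or vial 4 (0.0562), and without the control library rich in liver transcripts (0.146). At 1 µM the log2 difference was -0.47 (SE 0.18, adjusted p = 0.483), called with the vial as replicate block (0.00491).

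FOSL2 was called at 0.1 µM with a small change. Its counts were 3572, 3133, 4083 and 3760 in the control and 3092, 3040, 2996 and 3041 at 0.1 µM, a log2 fold change of -0.26 (SE 0.06, adjusted p = 0.024). The 4 exposed libraries lay close together and just below the lowest control. The call was lost without vial 3 (0.501) and without vial 4 (0.203), without the control library of vial 3 alone (0.144), with limma (0.13) and with only the 8 libraries compared (0.0775).

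FOS and FOSL1 were not called. FOS counts at 12 weeks ranged from 8801 to 15519 in the control and from 7797 to 11427 at 0.1 µM, a log2 difference of -0.36 (SE 0.18, adjusted p = 0.362), and at 1 µM the mean was 12047.5 counts beside 12178.0 in the control (log2 difference -0.02, SE 0.18). FOSL1 counts were 1661, 1092, 1597 and 1515 in the control, 1128, 1309, 851 and 968 at 0.01 µM, 949, 972, 815 and 1166 at 0.1 µM, and 1202, 1143, 845 and 945 at 1 µM. The control library of vial 2 lay inside the range of each exposed group, and the other 3 control libraries lay above all exposed libraries. The log2 differences were -0.46, -0.59 and -0.51 (SE 0.17 each), with adjusted p = 0.565, 0.13 and 0.37. DESeq2 (0.0367) and edgeR with all 32 libraries in the fit (0.0128) called the middle one.

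Without vial 3 at 12 weeks, 0 of 9 members were called at 0.1 µM, and only 4 of 12747 genes were called in all. Without vial 4, MAFF alone was called, among 11 genes in all. Without the control library of vial 3 alone, JUN and MAFF were called, among 26 genes.

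**Figure D3:**
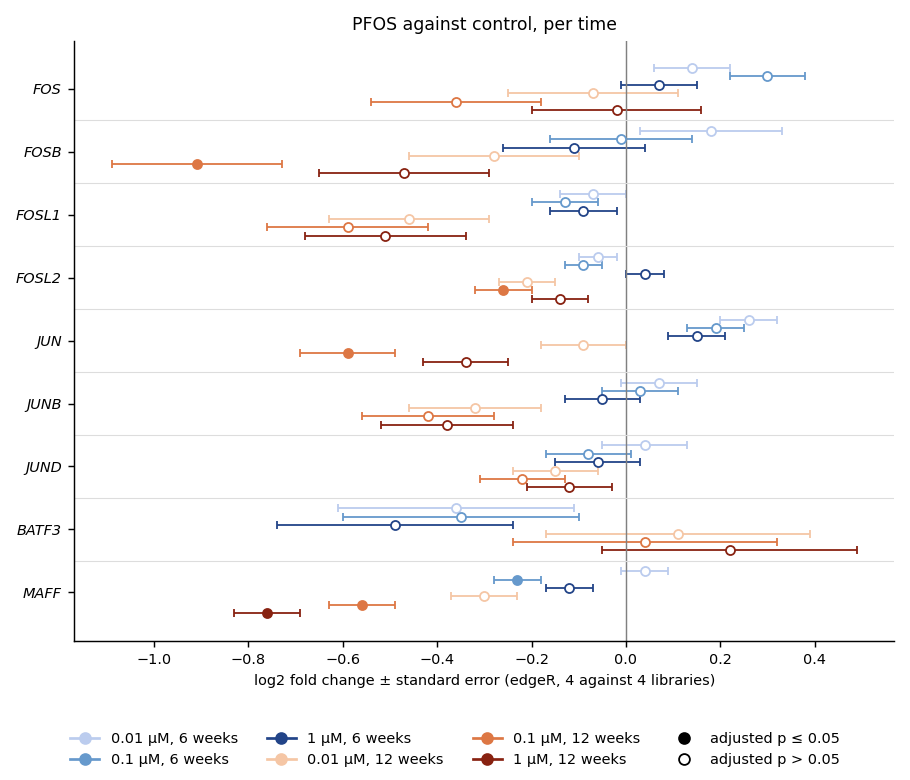
Log2 fold change and standard error of each member relative to the time-matched control, for 0.01, 0.1 and 1 µM PFOS at 6 weeks (blue) and 12 weeks (orange to brown). Filled points passed the adjusted p of 0.05, and at 12 weeks they are FOSB, FOSL2, JUN and MAFF at 0.1 µM and MAFF at 1 µM, all left of 0.

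Whether the PFOS effect differed between the times was tested as an interaction over all 32 libraries. JUN passed at 0.1 µM, where the effect at 12 weeks minus that at 6 weeks was -0.78 on the log2 scale (SE 0.12, adjusted p = 0.00244), in a comparison that called 1 of 9 members and 0.208% of 12988 genes. The JUN effect was 0.19 at 6 weeks and -0.59 at 12 weeks. MAFF passed at 1 µM with -0.64 (SE 0.10, adjusted p = 0.00226), beside 0.123% of genes called, its effect being -0.12 at 6 weeks and -0.76 at 12 weeks. The JUN call was lost without vial 4 (0.161), and the MAFF call without vial 3 (0.157) and without vial 4 (0.0859).

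Other interactions of members did not pass with edgeR on all 32 libraries without the block. Without vial 1, edgeR called MAFF at 0.01 µM (-0.47, adjusted p = 0.0221) and at 0.1 µM (-0.49, 0.00338). At 0.1 µM the interaction was -0.90 for FOSB (SE 0.24, adjusted p = 0.102), which the vial as replicate block (0.0266) and DESeq2 (0.0323) called, -0.65 for FOS (SE 0.20, 0.136) and -0.33 for MAFF (SE 0.10, 0.106). At 1 µM it was -0.48 for JUN (SE 0.12, adjusted p = 0.101), which the block (0.0205) and DESeq2 (0.00819) called. At 0.01 µM, with all vials in, 0 of 9 members were called with edgeR, DESeq2 or limma, beside 0% of genes with edgeR. With edgeR, 5 members had an unadjusted p under 0.05, beside 972 of 12988 genes. At all 3 concentrations 8 of 9 members had an interaction below 0. The 3 interactions share the same control libraries at both times, so these counts are not independent of each other.

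The upper 2 concentrations were also compared with each other, which leaves out the controls. At 6 weeks 0 of 9 members were called beside 0.0857% of genes, and at 12 weeks 0 of 9 beside 0% of genes. With edgeR 2 members at 6 weeks and 3 at 12 weeks had an unadjusted p under 0.05, beside 802 of 12836 and 984 of 12742 genes. DESeq2 and limma called 0 members at either time. At 6 weeks FOS lay at 6164 to 7691 counts at 1 µM and at 7969 to 8921 at 0.1 µM, with no overlap, and the log2 difference was -0.23 (SE 0.08, adjusted p = 0.696). At 12 weeks FOSB, JUN and FOS were higher at 1 µM than at 0.1 µM in 4 of 4 vials, by 0.44 (SE 0.18), 0.25 (SE 0.10) and 0.33 (SE 0.18) on the log2 scale, with adjusted p of 0.629, 0.629 and 0.685. The block called FOSB (0.0317). MAFF was lower at 1 µM in 4 of 4 vials, by -0.21 (SE 0.07, adjusted p = 0.622).

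FOS, FOSB, JUN and MAFF were higher after 12 weeks than after 6 weeks without PFOS. In the control, 4 of 9 members were called between 6 and 12 weeks, all higher, but 36.6% of 12988 genes were called in that comparison. FOSB rose by 0.92 on the log2 scale (SE 0.17, adjusted p = 0.000177), FOS by 0.83 (SE 0.15, 8.36e-05), JUN by 0.62 (SE 0.08, 2.09e-06) and MAFF by 0.38 (SE 0.07, 4.57e-05). The counts given above for each of them did not overlap between 6 and 12 weeks, and these 4 calls held under all 12 alternatives. The median over the members was 0.18 and that of all genes 0.004. Other markers moved in the same comparison. In the control libraries at 6 and 12 weeks, summed counts were 494 to 562 and 334 to 508 for 4 leukocyte markers, 33 to 45 and 15 to 22 for 3 endothelial markers, and 305 to 390 and 417 to 1737 for the liver transcripts, and their part in the result was not tested. Time in culture, passage number and any processing date cannot be told apart here. The 12-week control libraries used here also serve the comparisons with PFOS at 12 weeks and the interactions. The results of these comparisons are therefore not independent of each other, for the members and for the gene lists below.

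FOS and FOSB also rose with time at 0.01 and 1 µM, and FOSL2 fell. At 0.01 µM, FOS (0.62, SE 0.15), FOSB (0.47, SE 0.17) and JUN (0.27, SE 0.08) rose and FOSL2 fell by 0.23 (SE 0.05), 4 of 9 members beside 42.7% of genes, with adjusted p of 0.00121, 0.0277, 0.0108 and 0.000177. FOSB and JUN were not called there without vial 1 (0.11 and 0.134) or vial 3 (0.145 and 0.0812), or with limma (0.059 and 0.118). At 1 µM, FOS rose by 0.74 (SE 0.15, adjusted p = 0.000381) and FOSB by 0.57 (SE 0.17, 0.0138), while FOSL2 (-0.26, SE 0.05, 4.65e-05) and MAFF (-0.26, SE 0.07, 0.00443) fell, beside 30.1% of genes. FOSB was not called there without vial 2 (0.103) or vial 3 (0.0952).

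At 0.1 µM FOSL2 was the only member that edgeR called with time (-0.25, SE 0.05, adjusted p = 5.44e-05), 1 of 9 members beside 40.3% of genes. FOSB averaged 4971.8 counts at 6 weeks and 5074.5 at 12 weeks (log2 difference 0.02, SE 0.17), and JUN averaged 2293.2 and 2065.0 (-0.16, SE 0.09). FOS averaged 8359.5 and 9531.5 (0.18, SE 0.14). JUNB differed by -0.27 (SE 0.12, adjusted p = 0.0683), which the block (0.0481) and limma (0.0356) called. FOSL1 differed by -0.31 (SE 0.14, adjusted p = 0.0667) and was called with DESeq2 (0.0466) and limma (0.0452). For MAFF the change with time was 0.38 in the control, 0.05 at 0.01 and 0.1 µM, and -0.26 at 1 µM.

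**Figure D4:**
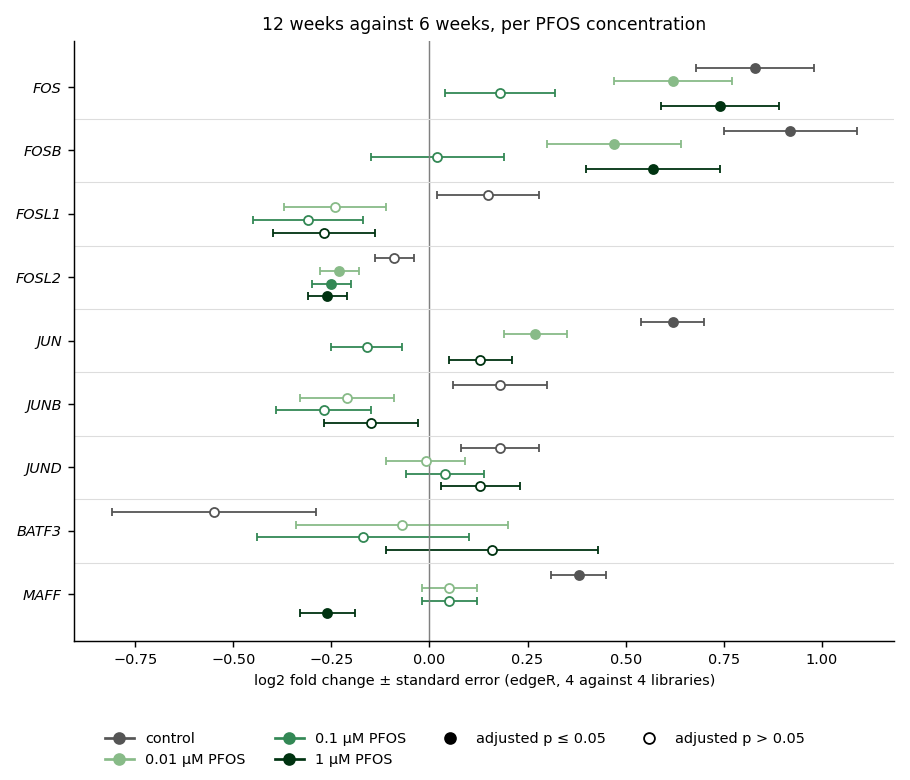
Log2 fold change from 6 to 12 weeks of each member with its standard error, in the control (grey) and at 0.01, 0.1 and 1 µM PFOS (light to dark green), filled where the adjusted p was at or under 0.05. FOS, FOSB and JUN lay furthest right in the control, at 0.83, 0.92 and 0.62, and FOSL2 lay left of 0 in every group.

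The spread between vials of a group was wider at 12 weeks than at 6 for several members, as a description with no test. The pooled SD within groups of log2(CPM + 1) was 0.124 for FOS at 6 weeks and 0.267 at 12 weeks, the latter larger than that of 97.3% of 12158 genes. It was 0.215 and 0.272 for FOSB and 0.106 and 0.246 for FOSL1. FOSL2 stayed narrow, at 0.048 and 0.080, and MAFF lay at 0.092 and 0.119, where the median over genes was 0.077 and 0.100. In the control at 6 weeks the vial 1 library had the most counts of the 4 for all 9 members.

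Some pairs of members deviated from their group means together. Over the 32 libraries, the deviations of log2(CPM + 1) correlated with r = 0.83 between FOS and JUN, 0.81 between FOS and FOSB and 0.62 between FOS and JUNB. Those of MAFF correlated with JUNB (r = 0.78), FOSB (0.63) and FOSL2 (0.51). For FOSL1 r was -0.28 to FOS and -0.33 to JUN. Within the 6-week libraries these were 0.21 and -0.10, and within the 12-week libraries -0.38 and -0.40. These values share libraries and are a description with no test.

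**Figure D5:**
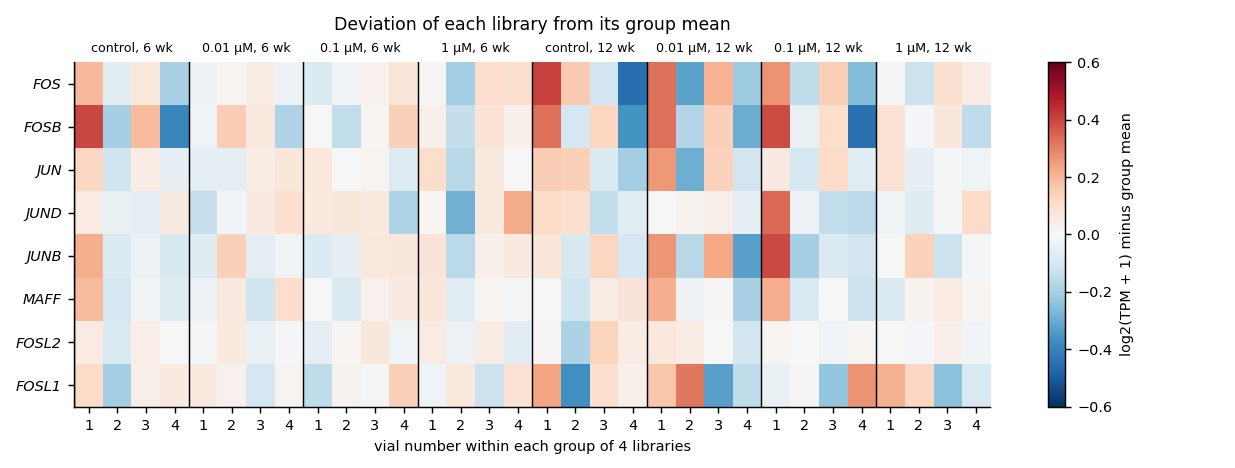
Deviation of log2(TPM + 1) from the mean of its group, for 8 members (rows) in the 32 libraries (columns, vials 1 to 4 within each group). Red is above and blue below the group mean, and in the 12-week control vial 1 is red and vial 4 blue for FOS and FOSB, with 15519 and 8801 FOS counts.

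Among 12149 other genes, up to 3 most like each member over the 32 libraries (Pearson r of log2(CPM + 1), groups and times pooled) were named by rank, as a description with no test. For FOS they were EGR1 (r = 0.905), ZNF608 (0.854) and SMPD3 (0.852), for FOSB ATF3 (0.894), PPP1R15A (0.890) and EIF1 (0.812), and for JUN ATF3 (0.788), PPP1R15A (0.778) and KLF2 (0.752). For JUNB they were NR4A2 (0.891), BHLHE40 (0.837) and VPS18 (0.832), and for MAFF TIPARP (0.902), CSRNP1 (0.832) and SPRY2 (0.824). For FOSL2 they were TSC22D1 (0.924), C11orf96 (0.912) and IL6 (0.911), and for FOSL1 PPIF (0.825), KDM1B (0.756) and SERPINB2 (0.755). JUND (FOXD1, 0.756, and RNF187, 0.710) had lower values, as did the sparsely counted BATF3 (TAGLN, 0.690, DNAJB6, 0.665, and SLC6A8, 0.656). With group means removed, EGR1 still correlated with FOS at 0.825, whereas ATF3 correlated with JUN at 0.264.

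Genes that act beside or downstream of AP-1 were counted in 4 lists, chosen with earlier results of these data known. Of 32 other immediate early genes, 31 were tested at 12 weeks. At 0.1 µM 8 were lower and 0 higher, beside 1.07% of all genes called. Of the 31, 30 lay below 0, with a median log2 difference of -0.42, where that of all genes was -0.005. ATF3, a bZIP repressor induced by stress, was lower by 0.80 (SE 0.09, adjusted p = 0.000778), MYC, a growth regulator, by 0.46 (SE 0.06, 0.000778), and CSRNP1 by 0.50 (SE 0.08, 0.00275). KLF4 (-0.97, SE 0.19), IER3 (-0.81, SE 0.16), RHOB (-0.54, SE 0.09), DUSP1, a MAP kinase phosphatase (-0.45, SE 0.09), and PPP1R15A (-0.44, SE 0.07) were lower too. At 1 µM 3 were lower, beside 0.22% of all genes called. They were CSRNP1 (-0.52, SE 0.08), PPP1R15A (-0.41, SE 0.07) and ATF3 (-0.50, SE 0.09, called under 7 of 13 alternatives). Without vial 3 these counts were 1 (ATF3) at 0.1 µM and 0 at 1 µM, and without the control library of vial 3 they were 5 and 1. Without vial 4 they were 4 and 1, without vial 2 5 and 1, with DESeq2 12 and 8, and with limma 7 and 0. With the vial as replicate block they were 9 and 5, with NR4A3 and SGK1 gained and IER3 lost at 0.1 µM, and NR4A3 and RHOB gained at 1 µM. At 0.01 µM 0 of 31 were called with edgeR and 25 lay below 0. Of the 31, 11 had an unadjusted p under 0.05, beside 1080 of 12742 genes.

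At 6 weeks the same list moved both ways. At 0.1 µM 3 of 30 were higher and 6 lower, beside 4.24% of all genes called, with a median of -0.01. EGR1 (0.68, SE 0.17, adjusted p = 0.0432), DUSP1 (0.26, SE 0.06, 0.0336) and CCN2 (0.26, SE 0.05, 0.0118) were higher than the control, and NR4A3 was lower by 1.32 (SE 0.18, 0.00385). At 1 µM CCN2 (0.35, SE 0.05) and KLF6 (0.20, SE 0.03) were higher and CSRNP1 was lower by 0.21 (SE 0.04), beside 0.28% of all genes called. From 6 to 12 weeks in the control, 15 of 31 rose and 1 fell beside the 36.6% of all genes, among them EGR1 (1.31, SE 0.21), ATF3 (0.78, SE 0.08) and DUSP1 (0.59, SE 0.08). The interaction at 0.1 µM called 5 of 31, all below 0, beside 0.208% of all genes. Among the 5 were ATF3 (-0.72, SE 0.11, adjusted p = 0.0025) and DUSP1 (-0.71, SE 0.12, 0.00304). The interaction at 1 µM called KLF6 (-0.34, SE 0.06, 0.0249), beside 0.123% of all genes.

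Of 28 textbook AP-1 target genes 21 were tested. VEGFA, an angiogenic growth factor, was lower at 12 weeks with 0.1 and 1 µM. In the control 2 rose and 7 fell from 6 to 12 weeks, where 36.6% of all genes were called. EDN1 (endothelin) and CD44 fell by 0.70 (SE 0.11) and 0.68 (SE 0.10), and VEGFA rose by 0.50 (SE 0.07). At 0.01, 0.1 and 1 µM 14, 13 and 11 of the 21 fell with time, beside 42.7%, 40.3% and 30.1% of all genes called in either direction. Against the control at 12 weeks, 20 of 21 lay below 0 at 0.1 µM (median -0.32, that of all genes -0.005). Of the 21, 4 were called lower, beside 1.07% of all genes called in either direction. The 4 were VEGFA (-0.46, SE 0.07, adjusted p = 0.00388), IL11 (-1.13, SE 0.22, 0.017), CXCL8 (-1.08, SE 0.24, 0.0412) and SERPINB2 (-1.75, SE 0.38, 0.0493). At 1 µM only VEGFA was lower (-0.55, SE 0.08, adjusted p = 0.000647), beside 0.22% of all genes called. This VEGFA call held under all 13 alternatives. At 0.1 µM 0 of 21 were called without vial 3 or without vial 4, and VEGFA alone without the control library of vial 3. With the vial as replicate block, 2 of 21 were called at 0.1 µM, IL11 and VEGFA.

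Among partners and upstream kinases, ATF3 was the only gene that edgeR called against the control in the fit of the 16 libraries at 12 weeks. DESeq2 also called CEBPB at 0.1 µM, and edgeR on all 32 libraries also called CEBPB, DDIT3 and MAP2K3 at 0.1 µM and NFE2L2 at 1 µM. Of 27 other bZIP genes 24 were tested against the control. At 12 weeks ATF3, which also belongs to the immediate early list, was called at 0.1 and at 1 µM, beside 1.07% and 0.22% of all genes. At 6 weeks NFE2, a partner of small MAF proteins, was higher at 0.1 µM (0.52, SE 0.15, adjusted p = 0.0491), where 4.24% of all genes were called. DDIT3 passed the interaction at 1 µM (-0.57, SE 0.12, adjusted p = 0.0266). Of 30 kinases and factors upstream of AP-1, 29 were tested and 0 were called at 12 weeks with edgeR, DESeq2 or limma at any concentration. In edgeR 3, 4 and 3 had an unadjusted p under 0.05, beside 1080, 1956 and 1115 of 12742 genes. At 6 weeks 4 were called at 0.1 µM, beside 4.24% of all genes. MAP2K3, a kinase of the p38 pathway, was lower by -0.35 (SE 0.05, adjusted p = 0.00019), MAP2K2 by -0.14 (SE 0.03, 0.0235) and RPS6KA4 by -0.20 (SE 0.05, 0.0301), and MAP3K1 was higher by 0.20 (SE 0.06, 0.0491). In the control from 6 to 12 weeks, 36.6% of all genes were called. Of 25 bZIP genes tested there, 9 rose and 4 fell, led by ATF3, JDP2 (0.48, SE 0.07) and ATF4 (0.26, SE 0.04). Of 29 kinase-list genes, 1 rose and 7 fell, with changes such as -0.18 (SE 0.05) for MAP2K1.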

How the data were processed

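RNA from 32 HGrC1 cultures was sequenced as stranded poly(A) libraries. The authors deposited expected counts and TPM per gene, made against GRCh38.p14, with HISAT2 2.0.4, Bowtie2 2.2.5 and RSEM 1.2.8 named in the submitters' processing notes. Deposited FPKM and DESeq2-normalized values were not used, and 0 columns were left unmapped. Of the expected counts, 92.3% were whole. They were rounded, filtered with filterByExpr, scaled by TMM and tested with edgeR 4.0.16 (glmQLFit, robust) in R 4.3.3. Comparisons at 1 time used its 16 libraries, and comparisons over time and interactions used all 32. Adjusted p-values (Benjamini-Hochberg, over all genes tested) at or under 0.05 were called. Alternatives used DESeq2 1.42.0, limma 3.58.1 on log2(TPM + 1), other filters, scalings and library sets, the vial as block, and each vial left out. The fits were tested on simulated data, and tables and plots were made in Python 3.11.15.

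Groups came from the sample labels. Replicate numbers, per the labels and methods, mark the thawed vial that was divided over the 4 conditions. Deviations of same-numbered libraries correlated with a mean r of 0.0546 to 0.14 for each pair of 6-week groups and of -0.175 to 0.157 for each pair of 12-week groups, where the 4 pairs of control and 1 µM libraries were all negative (-0.202 to -0.115). None of 48 replicate pairs was identical (chi-square per degree of freedom 2.35 to 16.9). All 9 members are named, as are the listed genes past the threshold (up to 8 a list by p, the rest as counts) and the 3 genes most correlated with each member, except for a few genes that are not reported here. The members and lists were chosen with earlier results of these data known. Promoter sequences are RefSeq's, on GRCh38.p14.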

Additional observations from a re-analysis of the deposited data

Results flagged for a closer look

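In groups of 4 libraries, 1 library stood apart from the other 3 in 4 of 72 tests (Dixon's ratio, the gap to the nearest library over the range of the group, above its 95% critical value), where chance gives about 1 in 20. FOSL2 had 3862 counts in vial 2 at 0.01 µM and 6 weeks, against 3635 to 3692 in the others, and 2998 in vial 4 at 0.01 µM and 12 weeks, against 3139 to 3229. JUND had 2748 counts in vial 4 at 0.1 µM and 6 weeks, against 3172 to 3234, and 3677 in vial 4 at 1 µM and 12 weeks, against 3344 to 3382.

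The PFOS effect differed between times for JUN at 0.1 µM, by -0.78 on the log2 scale (edgeR interaction, adjusted p = 0.00244), and for MAFF at 1 µM, by -0.64 (adjusted p = 0.00226).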

How the results depend on the processing

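No member changed direction in a comparison where it was called. The number of members called out of 9 moved as follows, and the cause was not tested. With the vial as replicate block it was 1 at 0.01 µM and 2 at 0.1 µM against the control at 6 weeks, 2 at 1 µM and 12 weeks, 1 for 1 against 0.1 µM at 12 weeks, 2 with time at 0.1 µM, and 2 for each interaction at 0.1 and 1 µM; the block moved no other count by over 1.5 times. With DESeq2 it was 3 at 0.1 µM and 6 weeks, 2 with time at 0.1 µM and 2 for each of those interactions. With limma it was 0 at 0.1 µM and 6 weeks and 3 with time at 0.1 µM. With only the 8 libraries compared it was 2 at 0.1 µM and 6 weeks, 2 at 0.1 µM and 12 weeks, 2 at 1 µM and 12 weeks and 2 with time at 0.1 µM. With all 32 libraries it was 0 at 0.1 µM and 6 weeks and 2 at 1 µM and 12 weeks, and with at least 10 counts in every library 2 at 0.1 µM and 6 weeks. Leaving out each vial in turn gave, at 6 weeks, 0 to 1 for the lowest and likewise 0 to 1 for the middle concentration, 0 to 6 at 0.1 µM and 12 weeks, 2 to 4 with time at 0.01 µM, 1 to 2 with time at 0.1 µM, and 0 to 1, 0 to 2 and 0 to 1 for the interactions at 0.01, 0.1 and 1 µM. Without the 12-week control library of vial 3 it was 2 at 0.1 µM and 12 weeks. At 0.1 µM and 12 weeks, 136 genes were called in all, 282 with DESeq2, 68 with limma, 540 with all 32 libraries and 4 to 315 when a vial was left out. With 11 to 32 counts per library, differences of BATF3 are limited by depth.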
